A study of Mus musculus with 12 samples.

Results

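The matrix metalloproteinases (MMPs) and their tissue inhibitors (TIMPs) were examined in C22 cells, a mouse club cell line. They were represented by 10 genes out of 23282 gene rows in the deposited count tables. The 10 were Mmp2, Mmp3, Mmp9, Mmp10, Mmp11, Mmp13, Mmp14, Timp1, Timp2 and Timp3. They were chosen as named members of the 2 families and not by a threshold on any measured value. Earlier results of these data were known when they were chosen. C22 is a cloned line from H-2Kb-tsA58 transgenic mice, which is kept dividing with interferon-gamma and differentiates when the temperature is raised and interferon-gamma is withdrawn. RNA was sequenced in 12 libraries in 4 groups of 3. NC cells were the negative control, NC + TGF-beta1 cells received 20 ng/ml TGF-beta1 for 24 h after serum starvation, siPDCD5 cells carried siRNA against Pdcd5, the gene of programmed cell death protein 5, and siPDCD5 + TGF-beta1 cells received both. All groups were the same line, and knockdown was by siRNA and left part of the Pdcd5 RNA. The labels do not say whether replicates came from separate cultures, so p-values measure only the spread between these libraries, which may be technical.

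MMPs are zinc-dependent endopeptidases that cut collagens, proteoglycans, growth factors and cell surface proteins. Most are secreted as inactive proenzymes, and TIMPs bind the active site and block it. In the lung this balance is studied in matrix turnover and in fibrosis, where TGF-beta1 is a main driver of matrix deposition.

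The total count of a library was 12809857 at the lowest and 17714828 at the highest, and values are given as CPM, the share of a gene in the scaled total. The floor taken here, 3 counts in a library, was 0.165 to 0.239 CPM. Pdcd5 was lower in siPDCD5 than in NC cells, at 21.1 ± 1.07 against 68.1 ± 4.68 CPM (mean ± SD, n = 3 each, edgeR adjusted p = 1.09e-06), and with TGF-beta1 it was 24.1 ± 2.26 against 67.8 ± 1.69 CPM (adjusted p = 5.47e-06). Within its group NC + TGF-beta1 replicate 2 stood apart from the other two libraries, and siPDCD5 replicate 1 did so in its own. Of 7 club cell markers, only Aldh1a1 and Cbr2 were above 1 CPM in every library, and Scgb1a1, which encodes the secretoglobin that defines club cells, had at most 1 count in any. Epcam was also at 0 or 1 count, while the keratin genes Krt8 and Krt18 were at 171 CPM or more. Of 7 genes used as fibroblast markers, 6 were above 1 CPM in every library. The summed level of the 7 was 3760 to 4005 CPM in NC, 7447 to 8064 CPM in NC + TGF-beta1, 2562 to 3137 CPM in siPDCD5 and 5613 to 5971 CPM in siPDCD5 + TGF-beta1. Col1a1 and Col3a1 carried this sum. With TGF-beta1, Col1a1, Col1a2, Col3a1 and Pdgfrb were higher and Dcn and Pdgfra were lower in every library, with and without knockdown. Dcn was at 91.7 to 101 CPM in NC and at 21.8 to 23.9 CPM in NC + TGF-beta1. The 7 club cell markers summed to 709 to 719 CPM in NC, 314 to 426 CPM in NC + TGF-beta1, 387 to 463 CPM in siPDCD5 and 259 to 273 CPM in siPDCD5 + TGF-beta1. Aldh1a1 carried the fall of this sum with TGF-beta1, at 547 to 556, 231 to 245, 292 to 326 and 155 to 165 CPM in these groups. Cbr2 overlapped between treated and untreated libraries, at 153 to 172, 82.6 to 187, 89.7 to 137 and 98.4 to 109 CPM. The sums of 6 general epithelial markers were 676 to 699, 1242 to 1678, 549 to 700.0 and 1586 to 1647 CPM in the same order. Krt8 and Krt18 carried these sums, and in NC cells the other markers of the list did not share their rise with TGF-beta1. Cdh1 was at 2.38 to 4.03 CPM in NC and 1.91 to 2.39 CPM in NC + TGF-beta1. Krt7 was at 2.23 to 2.69 and 1.90 to 2.71 CPM in these 2 groups. In siPDCD5 cells Krt7 was at 1.48 to 2.51 CPM without and 2.01 to 3.56 CPM with TGF-beta1, a shifted range that overlapped. Cdh1 was at 2.07 to 2.92 and 2.01 to 2.29 CPM there. The part of these markers in the results on MMPs and TIMPs was not tested. Of 6 leukocyte markers only Cd68 exceeded 1 CPM in every library, and Ptprc, the gene of CD45, had at most 6 counts.

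Mmp3, Mmp10 and Mmp13 lie near each other on chromosome 9, within 237.7 kb between the start of Mmp13 (chr9:7272514-7283331, plus strand, GRCm38) and the end of Mmp10 (chr9:7502352-7510240, plus strand), with Mmp3 between them (chr9:7445822-7455975, plus strand). Mmp3 and Mmp13 fell with TGF-beta1 and Mmp10 was not called, as described with their values, and the 250 bases before each start site are printed for that reason. Promoters of 8 of the 10 genes were matched in the RefSeq set for GRCm38.p6, all but Mmp2 and Mmp9. The motif TGANTCA, which AP-1 factors bind and which reads the same on both strands, occurred once in each of Mmp3, Mmp10 and Mmp13 and in none of the other 5, and it stands in capitals here. The windows were chr9:7445572-7445821 for Mmp3, chr9:7502092-7502341 for Mmp10 and chr9:7272264-7272513 for Mmp13, all on the plus strand.
Mmp3: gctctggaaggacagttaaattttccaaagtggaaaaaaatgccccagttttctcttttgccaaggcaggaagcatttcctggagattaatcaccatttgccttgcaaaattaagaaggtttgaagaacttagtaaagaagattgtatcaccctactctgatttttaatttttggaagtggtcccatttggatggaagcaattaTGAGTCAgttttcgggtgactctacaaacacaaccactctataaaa
Mmp10: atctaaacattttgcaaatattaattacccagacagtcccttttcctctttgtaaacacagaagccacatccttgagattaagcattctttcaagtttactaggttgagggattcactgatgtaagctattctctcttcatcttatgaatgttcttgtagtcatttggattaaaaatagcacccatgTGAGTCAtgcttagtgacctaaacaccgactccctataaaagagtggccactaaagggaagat
Mmp13: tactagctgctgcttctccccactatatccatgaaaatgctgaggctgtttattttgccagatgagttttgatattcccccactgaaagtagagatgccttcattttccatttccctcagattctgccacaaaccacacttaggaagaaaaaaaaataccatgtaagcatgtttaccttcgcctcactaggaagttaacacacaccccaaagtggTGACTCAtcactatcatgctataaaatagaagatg
The motif began 46 bases before the RefSeq start site in Mmp3, 63 in Mmp10 and 35 in Mmp13. For Mmp10 this site lies upstream of the gene start given above, which is from GENCODE. Distances to that start would be larger. Over all 32851 promoters of the set, 6.75% held it in the same window. A TATA motif (TATAAA, either strand) also occurred in these 3 and in none of the other 5, at 7, 29 and 16 bases before the start site, against 12.4% of all promoters, and 1.21% of all promoters held both motifs. The pentamer CAGAC, of the kind that SMAD proteins bind, was found on either strand in Mmp10 and Mmp11 only, and 42.2% of all promoters held it. None of these matches overlapped another. Mmp10, which was not called with TGF-beta1, held the AP-1 and TATA motifs as Mmp3 and Mmp13 did. As neighbours of the same gene family, the 3 are not independent draws from all promoters. Whether the motifs bear on the responses was not tested.

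**Figure D1:**
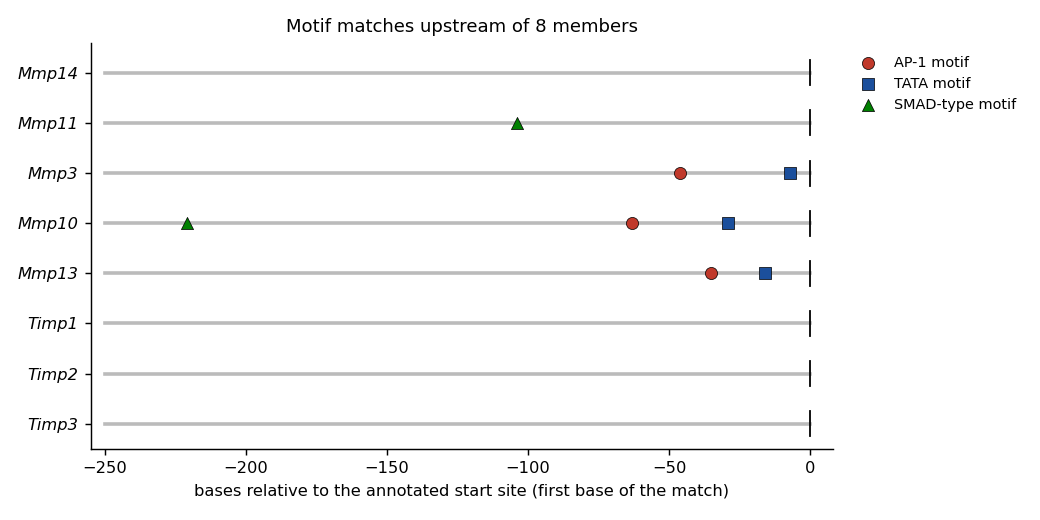
Positions of motif matches in the 250 bases before the RefSeq start site of 8 genes, with distance in bases on the x axis and one line per gene. Circles mark TGANTCA, squares TATAAA and triangles CAGAC, on either strand. The circles and squares are in Mmp3, Mmp10 and Mmp13 only, 35 to 63 and 7 to 29 bases before the start.

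The first question was how TGF-beta1 altered these genes in cells with and without Pdcd5 knockdown. In NC cells TGF-beta1 raised the RNA of Mmp2, Mmp11, Mmp14, Timp1, Timp2 and Timp3 and lowered that of Mmp3 and Mmp13, and Mmp10 did not pass the test. Thus 6 of 9 tested genes rose and 2 fell, whereas 8.57% of all 12425 tested genes rose and 6.77% fell. In siPDCD5 cells 4 of 9 rose (Mmp2, Mmp14, Timp1 and Timp3) against a background of 8.50%, and Mmp3 and Mmp13 again fell against a background of 7.61%. The members were chosen with earlier results of these data known. These shares, and those given below for knockdown, therefore describe the 9 genes and do not test the families. Of 17 further MMP and TIMP genes, 5 could be tested, and none of the 5 was called with TGF-beta1 in NC or siPDCD5 cells. The median log2 fold change of the 9 genes was 0.63 in NC and 0.39 in siPDCD5 cells, beside 0.00 and −0.03 over all genes tested. Mmp9 had too few counts for the filter and was left out of the tests, and its counts are described with the gelatinases. In these bulk libraries fewer cells expressing a gene and less RNA per cell cannot be told apart.

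**Figure D2:**
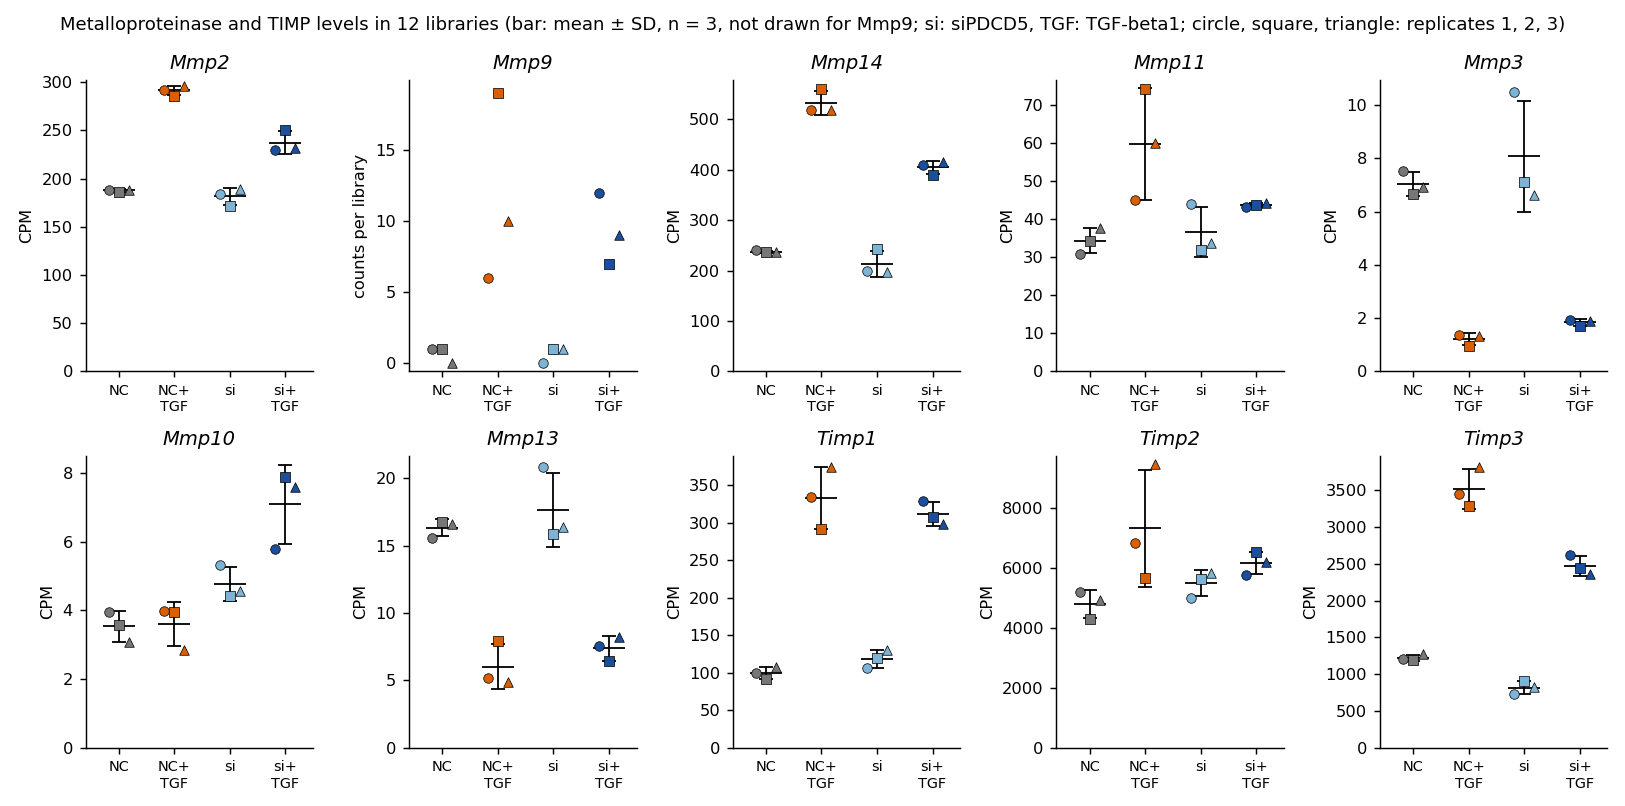
Level of each of the 10 genes in each library, in CPM on a linear axis from 0, or in raw counts for Mmp9. Points are the 3 libraries of each group (circle, square and triangle for replicates 1, 2 and 3), and bars are mean ± SD, not drawn for Mmp9. Mmp3 and Mmp13 are lower in every TGF-beta1 library than in any untreated one, and Mmp2, Mmp14, Timp1 and Timp3 are higher.

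Mmp14 and Mmp2 encode partners at the cell surface. Mmp14 (chr14:54431612-54445364, plus strand) encodes a membrane-anchored collagenase, MT1-MMP, that activates the proenzyme of the gelatinase MMP2 (Mmp2, chr8:92827291-92853420, plus strand). Mmp14 was at 240, 236 and 237 CPM in NC and at 519, 560 and 519 CPM in NC + TGF-beta1. Every treated library was higher than every untreated one, by 2.24-fold (log2 fold change 1.17 ± 0.09 SE, edgeR adjusted p = 5.65e-07). In siPDCD5 cells Mmp14 was at 200, 242 and 197 CPM without and 409, 390 and 416 CPM with TGF-beta1. The groups again did not overlap, and the rise was 1.90-fold (log2 fold change 0.93 ± 0.09 SE, adjusted p = 5.38e-06). Mmp2 was at 188, 186 and 188 CPM in NC and 292, 286 and 296 CPM in NC + TGF-beta1, a difference far wider than the spread of either group. This rise was 1.55-fold (log2 fold change 0.63 ± 0.08 SE, adjusted p = 3.58e-05). In siPDCD5 cells Mmp2 went from 184, 172 and 189 CPM to 229, 251 and 232 CPM. The change there was smaller in size, 1.31-fold (log2 fold change 0.39 ± 0.08 SE, adjusted p = 0.00250), with no overlap between the groups. The calls of both genes were kept in each of the 13 alternatives run for each TGF-beta1 comparison.

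Mmp9 (chr2:164940780-164955850, plus strand) encodes the other gelatinase, better known from neutrophils and macrophages. It had 1, 1 and 0 counts in NC and 6, 19 and 10 in NC + TGF-beta1. In siPDCD5 cells there were 0, 1 and 1 counts without and 12, 7 and 9 with TGF-beta1. All 6 untreated libraries were at or under 1 count and all 6 treated ones were above the floor. The ratio of summed counts, scaled for depth, was 17.5 in NC (95% interval 4.50 to 150.3) and 15.5 in siPDCD5 cells (3.90 to 134.0), intervals that cover counting error only. When the filter on low counts was dropped, the edgeR fit called the rise in NC (adjusted p = 0.00511) and in siPDCD5 cells (adjusted p = 0.00852). The highest count, 19, was in NC + TGF-beta1 replicate 2, the library that stood apart. Between the TGF-beta1 groups the ratio of siPDCD5 to NC was 0.742 (0.435 to 1.25), so a difference was not detectable at this depth.

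Mmp11 (chr10:75923222-75936496, minus strand) encodes stromelysin-3, which is activated inside the cell by furin. It was at 31.0, 34.4 and 37.8 CPM in NC and at 45.1, 74.4 and 60.0 CPM in NC + TGF-beta1. The treated libraries were all higher but spread widely, and the rise was 1.74-fold (log2 fold change 0.80 ± 0.16 SE, edgeR adjusted p = 0.00344). Its level in siPDCD5 cells was 44.1, 32.0 and 33.9 CPM without and 43.3, 43.9 and 44.4 CPM with TGF-beta1. Here siPDCD5 replicate 1 lay within the treated range, and the log2 fold change of 0.26 (95% interval −0.09 to 0.61) did not pass the test (adjusted p = 0.315). Mmp11 shares 155 bases of exon with Chchd10 on the opposite strand, which had 49 to 85 counts in a library against 408 or more for Mmp11, and the use of strand in counting is not given in the sources used here.

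Mmp3 and Mmp13 were the members that fell. Mmp3 encodes stromelysin-1, which cuts proteoglycans and activates other proenzymes, and Mmp13 encodes the main interstitial collagenase of rodents. Mmp3 was at 7.53, 6.68 and 6.91 CPM in NC and at 1.35, 0.972 and 1.32 CPM in NC + TGF-beta1. With knockdown it was at 10.5, 7.11 and 6.63 CPM without and 1.95, 1.70 and 1.88 CPM with TGF-beta1. All treated libraries were far under all untreated ones, 5.77-fold lower in NC (log2 fold change −2.53 ± 0.24 SE, edgeR adjusted p = 4.20e-06) and 4.34-fold lower in siPDCD5 cells (−2.12 ± 0.22 SE, adjusted p = 1.24e-05). The lower values rested on 13 to 29 counts in a library. Mmp13 was at 15.6, 16.8 and 16.6 CPM in NC and at 5.18, 7.92 and 4.90 CPM in NC + TGF-beta1. In siPDCD5 cells it went from 20.8, 15.8 and 16.4 CPM to 7.52, 6.40 and 8.20 CPM. Again no treated library reached an untreated one, and the fall was 2.72-fold in NC (log2 fold change −1.44 ± 0.19 SE, adjusted p = 8.01e-05) and 2.38-fold in siPDCD5 cells (−1.25 ± 0.18 SE, adjusted p = 2.19e-04). These 4 calls were kept under all 13 alternatives of each comparison.

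Mmp10, their neighbour, encodes stromelysin-2, the closest relative of stromelysin-1. Its transcript and that of Mmp3 were identical in 74.5% of aligned positions, but no 75-base stretch in the last 500 bases of either came within 5 edits of another MMP or TIMP transcript. Mmp10 was at 3.95, 3.56 and 3.07 CPM in NC and at 3.98, 3.96 and 2.85 CPM in NC + TGF-beta1. The groups overlapped, with a log2 fold change of 0.03 (95% interval −0.44 to 0.49, edgeR adjusted p = 0.960), an interval that leaves out a fall of the size seen in Mmp3 or Mmp13. Knockdown cells were at 5.31, 4.41 and 4.57 CPM without and 5.77, 7.87 and 7.60 CPM with TGF-beta1. These groups did not overlap, yet the log2 fold change of 0.57 ± 0.20 SE missed the threshold (adjusted p = 0.0645).

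With TGF-beta1 each inhibitor that was called was higher. Timp1 (chrX:20870166-20874735, plus strand) encodes a soluble inhibitor that binds proMMP9. It was at 99.7, 91.5 and 108 CPM in NC and at 334, 291 and 375 CPM in NC + TGF-beta1. No treated library came near an untreated one, and the fitted rise was 3.34-fold (log2 fold change 1.74 ± 0.11 SE, edgeR adjusted p = 9.91e-08). In siPDCD5 cells Timp1 went from 106, 119 and 131 CPM to 329, 308 and 298 CPM, 2.63-fold (log2 fold change 1.39 ± 0.11 SE, adjusted p = 7.50e-07).

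Timp3 (chr10:86300372-86349506, plus strand) encodes the inhibitor that stays bound to the matrix and also blocks ADAM proteases. Its level was 1200, 1194 and 1270 CPM in NC and 3452, 3289 and 3811 CPM in NC + TGF-beta1. The siPDCD5 cells were at 730, 902 and 821 CPM without and 2620, 2439 and 2360 CPM with TGF-beta1. The treated and untreated libraries were far apart in both, with a rise of 2.88-fold in NC (log2 fold change 1.53 ± 0.10 SE, edgeR adjusted p = 1.01e-07) and 3.02-fold in siPDCD5 cells (1.60 ± 0.10 SE, adjusted p = 7.67e-08). Timp3 shares 1733 bases of exon with Syn3 on the opposite strand and the same limit on strand applies, but Syn3 had only 18 to 54 counts in a library.

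Timp2 (chr11:118301069-118355740, minus strand) encodes the inhibitor that also bridges MT1-MMP and proMMP2 at the membrane. It was at 5190, 4276 and 4921 CPM in NC and at 6811, 5645 and 9454 CPM in NC + TGF-beta1. The treated libraries were all higher, but replicate 3 was far over the other two, and the rise of 1.52-fold (log2 fold change 0.61 ± 0.15 SE) had an edgeR adjusted p of 0.0136. Without that replicate 3 the log2 fold change was 0.38 (adjusted p = 0.0439). Without NC replicate 2 it was 0.53 and no longer called (adjusted p = 0.0763), and the call was also lost with quantile normalization (log2 fold change 0.34, adjusted p = 0.113) and when only these 6 libraries were fitted (adjusted p = 0.0573). In siPDCD5 cells Timp2 was at 5002, 5615 and 5831 CPM without and 5766, 6506 and 6183 CPM with TGF-beta1. These groups overlapped, and the log2 fold change of 0.17 (95% interval −0.16 to 0.49) did not pass the test (adjusted p = 0.517).

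**Figure D3:**
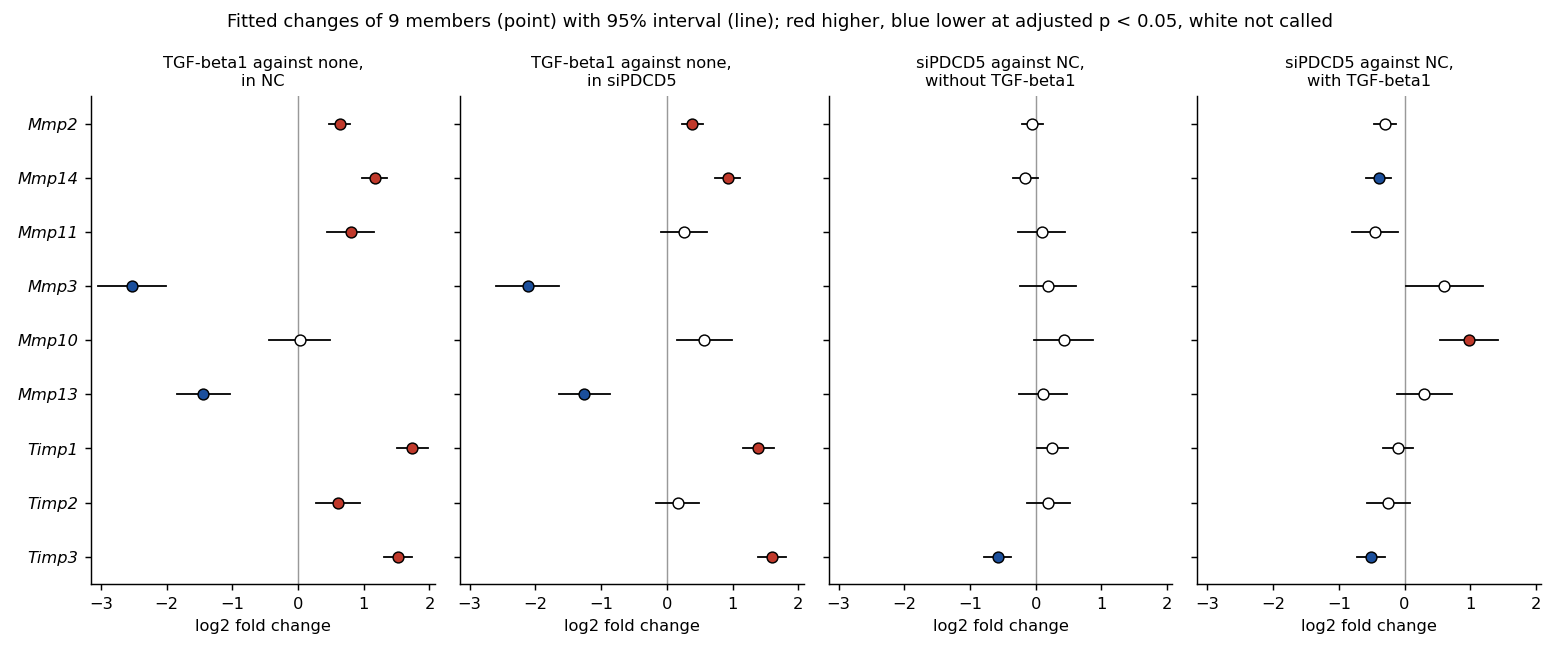
Fitted log2 fold changes of the 9 tested genes in 4 comparisons, with 95% intervals as lines. Red points are higher and blue points lower at an adjusted p under 0.05, and white points were not called. The TGF-beta1 panels hold 6 and 4 red points and Mmp3 and Mmp13 in blue, and the knockdown panels hold 1 and 3 called points.

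The second question was how knockdown of Pdcd5 altered the genes. Without TGF-beta1, Timp3 was the only one of 9 that passed the test, and it fell. The background in this comparison was 2.54% of all genes lower and 0.901% higher, and 0 of the 9 were higher. With TGF-beta1, Timp3 and Mmp14 fell and Mmp10 rose, that is 2 of 9 lower against a background of 1.22% and 1 of 9 higher against 0.330%. The median log2 fold change of the 9 was 0.11 without and −0.25 with TGF-beta1, beside 0.02 and −0.02 over all genes tested. The calls with TGF-beta1 were near the threshold, and none of these 3 held in every alternative.

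Timp3 was lower in knockdown cells in both conditions. From the values above, its mean was 1222 ± 42.4 CPM in NC and 818 ± 86.5 CPM in siPDCD5 cells (SD, n = 3 each), a fall of 1.49-fold (log2 fold change −0.58 ± 0.10 SE, edgeR adjusted p = 0.00367). No siPDCD5 library reached an NC library, and this call was kept under all 13 alternatives. With TGF-beta1 the means were 3518 ± 267 CPM and 2473 ± 133 CPM, a fall of 1.42-fold (log2 fold change −0.51 ± 0.10 SE, adjusted p = 0.0162), again with no overlap. This second call was lost without NC + TGF-beta1 replicate 3 (adjusted p = 0.0533), siPDCD5 + TGF-beta1 replicate 2 (0.0942) or siPDCD5 + TGF-beta1 replicate 3 (0.104), and with quantile normalization (log2 fold change −0.32, adjusted p = 0.102). It was also lost when only those 6 libraries were fitted (adjusted p = 0.0907). The summed fibroblast markers, a sum carried by Col1a1 and Col3a1, were also lower in knockdown cells, whereas Dcn and Col1a2 of the same list were higher there in every library, with and without TGF-beta1.

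Mmp10 was higher in knockdown cells given TGF-beta1, at 7.08 ± 1.14 CPM against 3.60 ± 0.647 CPM (SD, n = 3 each). The difference was 1.97-fold (log2 fold change 0.97 ± 0.21 SE, edgeR adjusted p = 0.0307), and the lowest siPDCD5 + TGF-beta1 library, at 5.77 CPM, was above the highest NC + TGF-beta1 library, at 3.98 CPM. It rested on 39 to 113 counts per library. The call was lost without NC + TGF-beta1 replicate 1 (adjusted p = 0.0632) or replicate 3 (0.104), and without siPDCD5 + TGF-beta1 replicate 2 (0.146) or replicate 3 (0.132), while the log2 fold change stayed between 0.83 and 1.05 in those 4 fits. It was also lost when only these 6 libraries were fitted (adjusted p = 0.143). Without TGF-beta1 the siPDCD5 libraries were also all above the NC libraries, at 4.77 ± 0.482 against 3.53 ± 0.443 CPM, but the log2 fold change of 0.43 ± 0.21 SE did not pass the test (adjusted p = 0.348).

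Mmp14 was lower in knockdown cells given TGF-beta1, at 405 ± 13.4 CPM against 533 ± 23.6 CPM (SD, n = 3 each). The highest knockdown library was at 416 CPM and the lowest control library at 519 CPM, and the difference was 1.32-fold (log2 fold change −0.40 ± 0.09 SE, edgeR adjusted p = 0.0428). This call was lost in 11 of 13 alternatives, including each of the 6 fits without 1 library (adjusted p 0.0526 to 0.199), although the log2 fold change stayed between −0.42 and −0.36 in those 6. Without TGF-beta1 the means were 213 ± 25.2 and 238 ± 2.17 CPM, the groups overlapped because siPDCD5 replicate 2 was at 242 CPM, and the log2 fold change of −0.16 did not pass the test (adjusted p = 0.441).

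Among members that did not pass, Mmp2 and Mmp11 were lower and Mmp3 was higher in every siPDCD5 + TGF-beta1 library than in any NC + TGF-beta1 library, without a call. The share of all tested genes whose groups separate in this way was not determined, here or for the other comparisons. Separation without a call is therefore a description only. Mmp2 was at 237 ± 11.7 CPM in siPDCD5 + TGF-beta1 and 291 ± 4.93 CPM in NC + TGF-beta1 (log2 fold change −0.30 ± 0.08 SE, edgeR adjusted p = 0.0705). DESeq2 called this gene lower (adjusted p = 0.00152). Mmp11 was at 43.9 ± 0.573 against 59.8 ± 14.7 CPM (log2 fold change −0.45 ± 0.16 SE, edgeR adjusted p = 0.213). The siPDCD5 + TGF-beta1 libraries of Mmp11 lay close together, and the lowest NC + TGF-beta1 library, at 45.1 CPM, was just above them. Mmp3 had a log2 fold change of 0.60 (95% interval 0.02 to 1.19, adjusted p = 0.347), Mmp13 of 0.30 (−0.12 to 0.71, adjusted p = 0.549), Timp1 of −0.10 (−0.33 to 0.14, adjusted p = 0.771) and Timp2 of −0.25 (−0.58 to 0.08, adjusted p = 0.527). Without TGF-beta1 the log2 fold changes of Mmp2, Mmp3, Mmp11, Mmp13, Timp1 and Timp2 lay between −0.05 and 0.25, with adjusted p from 0.280 to 0.859. Those of Mmp3, Mmp11 and Mmp13 changed sign without siPDCD5 replicate 1, to −0.04, −0.07 and −0.02.

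**Figure D4:**
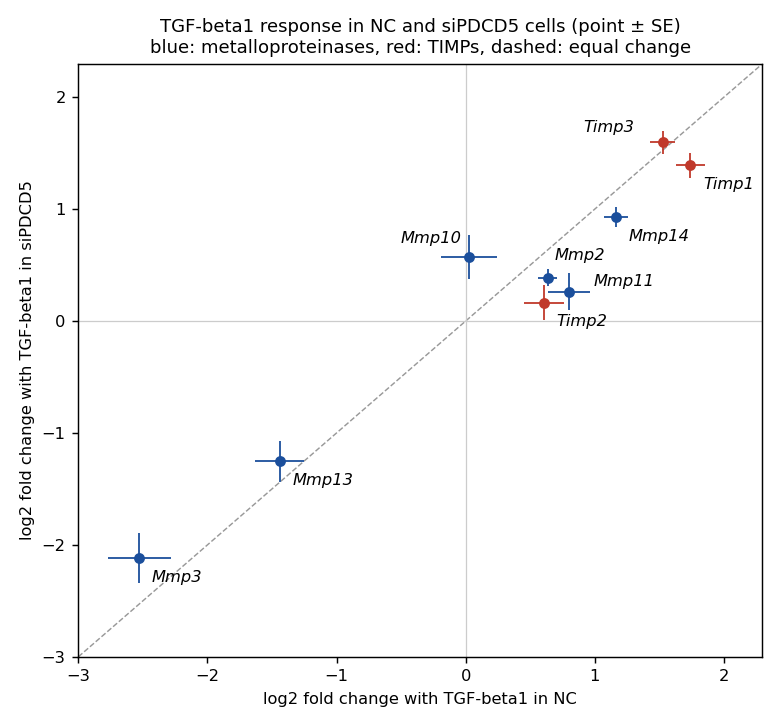
Log2 fold change with TGF-beta1 in NC cells (x axis) against that in siPDCD5 cells (y axis) for the 9 tested genes, each point with its SE in both directions. Blue points are MMPs, red points TIMPs, and the dashed line marks equal change. Timp1, Timp2, Mmp2, Mmp11 and Mmp14 lie under the line, and Mmp3, Mmp10, Mmp13 and Timp3 above it.

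Whether the response to TGF-beta1 itself differed between NC and siPDCD5 cells was tested as an interaction. In edgeR 0 of the 9 genes passed, beside 0 of all genes tested (a background of 0%), with adjusted p between 0.951 and 0.988. At an unadjusted p under 0.05 there were 3 of 9 (Mmp2, Mmp11 and Timp1), beside 5.13% of all genes. As the members were chosen with earlier results known, this share describes the 9 genes and does not test the families. DESeq2 called 15 genes over the whole table and none of the 9. The differences in log2 fold change, siPDCD5 minus NC, were −0.54 (95% interval −1.03 to −0.04) for Mmp11, −0.44 (−0.90 to 0.02) for Timp2, −0.35 (−0.68 to −0.02) for Timp1, −0.25 (−0.48 to −0.02) for Mmp2 and −0.24 (−0.51 to 0.03) for Mmp14. They were 0.55 (−0.08 to 1.17) for Mmp10, 0.41 (−0.31 to 1.13) for Mmp3, 0.19 (−0.37 to 0.74) for Mmp13 and 0.07 (−0.22 to 0.36) for Timp3. Mmp11 and Timp2, called with TGF-beta1 in NC cells only, were therefore not shown to respond differently in siPDCD5 cells.

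Within NC + TGF-beta1, replicate 2 was not simply higher or lower throughout. It was the highest of the 3 libraries for Mmp9, Mmp11, Mmp13 and Mmp14 and the lowest for Mmp2, Mmp3, Timp1, Timp2 and Timp3. Replicate 3 was the highest for all 3 inhibitors. Without replicate 2 the 8 genes called for TGF-beta1 in NC cells were still called. Within siPDCD5, replicate 1 was the highest library for Mmp3, Mmp10, Mmp11 and Mmp13 and the lowest for the 3 inhibitors. The 6 calls for TGF-beta1 in siPDCD5 cells were also kept without it.

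Most other genes of the family had few counts. Of 17 further MMP and TIMP genes, 5 passed the filter (Mmp15, Mmp16, Mmp19, Mmp23 and Mmp24), and none of the 5 was called with TGF-beta1 in NC or in siPDCD5 cells. Mmp16 encodes MT3-MMP, a membrane-anchored relative of MT1-MMP. It was at 13.3, 13.4 and 15.2 CPM in NC and at 8.86, 9.59 and 8.88 CPM in siPDCD5 cells, without overlap. The log2 fold change was −0.61 ± 0.15 SE (edgeR adjusted p = 0.0344). Without any 1 of the 6 libraries it was −0.65 to −0.55 and no longer called (adjusted p 0.0679 to 0.149). With TGF-beta1 Mmp16 was at 11.7 ± 0.799 against 17.7 ± 3.28 CPM, a log2 fold change of −0.60 that missed the threshold (adjusted p = 0.0544). Mmp7, the matrilysin gene of injured lung epithelium, had 0 counts in all 12 libraries, which allows up to 0.239 CPM in a library, and Timp4 had at most 1 count.

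Of 14 genes that activate, anchor or restrain MMPs, 7 were tested. With TGF-beta1 in NC cells 2 rose and 1 fell, and in siPDCD5 cells 3 rose and 1 fell, while none of the 7 was called for knockdown. The backgrounds were those given above, 8.57% higher and 6.77% lower in NC and 8.50% and 7.61% in siPDCD5 cells, and for knockdown they were so low (1.22% lower and 0.330% higher with TGF-beta1) that 0 of 7 is near the background. Cd44 encodes the hyaluronan receptor, which holds MMP9 and MT1-MMP at the cell surface. It was at 48.9, 50.4 and 52.5 CPM in NC and 97.2, 146 and 89.3 CPM in NC + TGF-beta1, a rise of 2.19-fold (log2 fold change 1.13 ± 0.17 SE, edgeR adjusted p = 2.29e-04). In siPDCD5 cells it rose from 68.0, 57.0 and 50.2 CPM to 118, 94.3 and 104 CPM (log2 fold change 0.85 ± 0.16 SE, adjusted p = 0.00223). Both calls of Cd44 were kept under all 13 alternatives.

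Furin encodes the convertase that cleaves proMMP11 and proMMP14. It was at 94.1, 89.0 and 95.5 CPM in NC and at 175, 104 and 217 CPM in NC + TGF-beta1, where replicate 2 was close to the untreated libraries. Its log2 fold change was 0.83 ± 0.21 SE (edgeR adjusted p = 0.0136), and the call was lost without NC replicate 2 (0.80, adjusted p = 0.0608) or NC + TGF-beta1 replicate 3 (0.59, adjusted p = 0.0613). Knockdown cells were at 62.1, 98.6 and 93.2 CPM without and 143, 139 and 138 CPM with TGF-beta1 (log2 fold change 0.72 ± 0.21 SE, adjusted p = 0.0299). Without siPDCD5 replicate 1, the low library, this was 0.55 (adjusted p = 0.0874), and the call was also lost without any 1 of the 3 treated libraries (adjusted p 0.0732 to 0.0871).

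Plat, the gene of tissue plasminogen activator, fell with TGF-beta1. It was at 9.28, 18.2 and 17.8 CPM in NC and at 3.42, 8.52 and 2.49 CPM in NC + TGF-beta1, with a log2 fold change of −1.65 ± 0.41 SE (edgeR adjusted p = 0.0133). The call was lost without NC replicate 2 or 3 or NC + TGF-beta1 replicate 1 or 3 (adjusted p 0.0524 to 0.0616). Among siPDCD5 cells it was at 19.2, 16.7 and 11.6 CPM without and 4.83, 2.39 and 6.39 CPM with TGF-beta1 (log2 fold change −1.79 ± 0.41 SE, adjusted p = 0.00764). Plaur, the urokinase receptor gene, was called in siPDCD5 cells only, from 6.86, 9.21 and 10.3 CPM to 13.8, 12.7 and 15.4 CPM (log2 fold change 0.67 ± 0.20 SE, adjusted p = 0.0353). That call was lost without siPDCD5 replicate 1 or 2 or any 1 of the treated libraries (adjusted p 0.0553 to 0.123), and its interaction was 0.31 (adjusted p = 0.960). The urokinase gene Plau had log2 fold changes of 0.80 in NC and 0.82 in siPDCD5 cells that missed the threshold (adjusted p = 0.0652 and 0.0508).

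**Figure D5:**
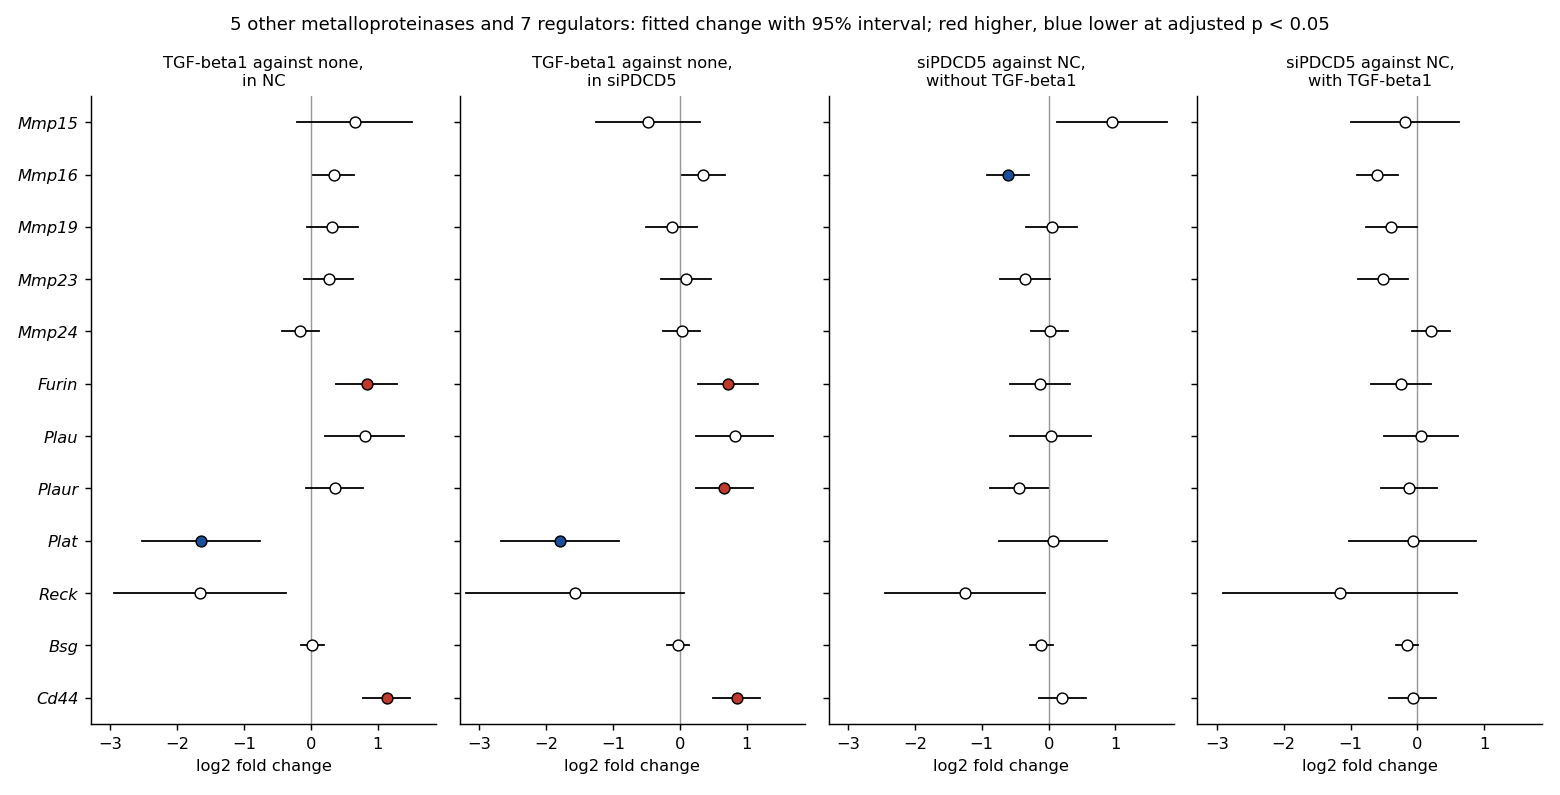
Fitted log2 fold changes, with 95% intervals as lines, of 5 other MMP genes and 7 genes that activate, anchor or restrain MMPs, in 4 comparisons. Red points are higher and blue points lower at an adjusted p under 0.05. Cd44 and Furin are red and Plat is blue in both TGF-beta1 panels, and Mmp16 is the only called gene in the knockdown panels.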

How the data were processed

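QuantSeq 3′ mRNA-seq of C22 cells gave 12 libraries, grouped by their labels into 4 groups of 3. Per the labels and the study's methods, the authors aligned single-end reads to mm10 (Bowtie2), counted them for each gene with Bedtools, multiple alignments included, and deposited whole-number counts without normalization. Their quantile normalization is not in these counts. The use of strand is not given in the sources used here.

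The default filter of edgeR, applied to all 12 libraries, kept 12425 of 23282 rows. Libraries were scaled by TMM and genes tested in a 4-group quasi-likelihood model (R 4.3.3, edgeR 4.0.16), with Benjamini-Hochberg adjustment over all genes and calls at an adjusted p under 0.05. CPM use TMM-scaled totals. Totals were 12809857 to 17714828. A floor of 3 counts and the 95% intervals of count ratios (exact, from summed counts) cover counting error only, since reads carry no molecular identifiers.

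As alternatives, factors from the upper quartile, limma-trend after quantile normalization (limma 3.58.1), DESeq2 1.42.0, no filter, a minimum of 10 counts throughout, a fit of just the 6 libraries at issue, the replicate number as a block, and leaving out each library were run. Scripts were tested on simulated data. Genes named are the 10 members, Pdcd5, and from the lists of other family genes and of regulators those called in a comparison, up to 6 each by smallest p. Plau, Mmp7, Timp4, Syn3, Chchd10 and the marker genes were named after their values were seen. The members and lists were chosen with earlier results of these data known. Promoters are from RefSeq (GRCm38.p6) and positions from GENCODE M21 (GRCm38). Similar stretches of transcripts were sought with edlib 1.3.9.post1.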

Additional observations from a re-analysis of the deposited data

How the results depend on the processing

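The count of members called was kept within 1.5 times of its value under every alternative for TGF-beta1 in NC, TGF-beta1 in siPDCD5, knockdown without TGF-beta1 and the interaction. For knockdown with TGF-beta1 it was 3, and it became 1 with quantile normalization, 0 with only the 6 libraries compared, 1 with the replicate block, and 0 to 2 when 1 library was left out. The fits without 1 library and with 6 libraries have fewer samples, and for the rest the cause was not tested.

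For TGF-beta1 in NC, pairing by replicate number was not settled. There 2 of 3 same-numbered pairs correlated above 0.1, and 5 of 6 libraries correlated best with their own number. The mean correlation was 0.113 for same and −0.057 for other numbers. In the other 3 comparisons the numbers did not pair the libraries. No same-numbered pair correlated above 0.1 there, and 2, 1 and 0 of 6 libraries correlated best with their own number. With the block Mmp10 (adjusted p = 0.0633) and Mmp14 (0.0822) for knockdown with TGF-beta1 and Mmp16 (0.0580) for knockdown without it were no longer called, and no other call of a gene named here changed. Over all genes it gave 107 calls for knockdown with TGF-beta1 against 192 without it.

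Signs turned only in values that did not pass the test. Mmp10 with TGF-beta1 in NC was −0.0085 with upper-quartile factors and −0.072 to 0.18 without 1 library, and with quantile normalization Timp2 was −0.082 for TGF-beta1 in siPDCD5 and 0.0019 for knockdown with TGF-beta1. For knockdown without TGF-beta1, leaving out 1 library gave −0.037 to 0.31 for Mmp3, −0.068 to 0.18 for Mmp11 and −0.024 to 0.19 for Mmp13. Mmp10 with TGF-beta1 in siPDCD5 was called with quantile normalization (adjusted p = 0.0473) and DESeq2 (0.0442).

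Over all genes, knockdown with TGF-beta1 gave 192 calls, 44 with the 6 libraries, 458 with DESeq2 and 73 to 322 without 1 library, and 51 higher and 110 lower with quantile normalization against 41 and 151. Knockdown without TGF-beta1 gave 427, 714 with DESeq2 and 167 to 324 without 1 library, and the interaction 0, 15 with DESeq2 and up to 2 without 1 library. Depth limited Mmp9, with 19 counts at most, and Mmp3 and Mmp10.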
